A study of Mus musculus with 4 samples.

Results

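The signal of an antibody against Nrf2 in the esophagus of Keap1KO mice was compared with the signal of the same antibody in the esophagus of Nrf2KO mice, which lack the protein that the antibody is raised against. All 1940 gene rows of the deposited ChIP-seq table were used, with groups taken from the submitters' labels. Genes that list the same called intervals hold the same values, so each distinct listing was counted once, which left 1469 interval sets of the 1940 rows. Up to 7 genes shared a set, and 120 sets still had an interval in common with another set. The table holds 1 Keap1KO library, 1 Nrf2KO library and 1 wild-type library, made from C57BL/6 mice with the antibody sc-13032 (Santa Cruz). A pooled input library of the same tissue and strain was not analysed here. The alleles behind both knockouts, whether each was deleted in all cells, the animals' age and the number of animals per library are not stated in those labels. With 1 library per genotype every comparison is a description of single libraries, without a test, an error between animals or a p-value.

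Nrf2 (gene Nfe2l2) is a transcription factor that binds antioxidant response elements as a dimer with a small Maf protein and turns on genes of glutathione, thioredoxin and quinone metabolism. Keap1 holds Nrf2 in the cytoplasm and hands it to a ubiquitin ligase, so that cells without Keap1 accumulate Nrf2 in the nucleus. The esophagus is lined by a squamous epithelium, and mice without Keap1 are known for a thickened, keratinised lining there. Signal of the antibody in tissue without Nrf2 is background, which the comparison with Keap1KO sets beside tissue in which Nrf2 accumulates.

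The following sequences show what lay under the listed positions at both ends of the comparison. They are stretches of RefSeq promoter windows (build GRCm38.p6), up to 60 bases on either side of the position, upstream of the gene start only, and stretches under 80 bases were left out. The first 5 hold the tallest Keap1KO signals among sets at least 8-fold above Nrf2KO for which such a stretch was found. Capitals mark TGACNNNGC (the core of the antioxidant response element), TGANTCA (an AP-1 site) or CCGGAAG (an ETS site), on either strand. The first 2 motifs can overlap, as they do in Prdx1, a peroxiredoxin (chr4:116685364-116685484, plus strand). Osgin1, an oxidative stress growth inhibitor, lies at chr8:119436964-119437084 (plus). Aox1, an aldehyde oxidase, lies at chr1:58029719-58029820 (plus). Tedc2, of a tubulin complex, lies at chr17:24220996-24221101 (minus). Gsta3, a glutathione transferase, lies at chr1:21240356-21240476 (plus).
Prdx1: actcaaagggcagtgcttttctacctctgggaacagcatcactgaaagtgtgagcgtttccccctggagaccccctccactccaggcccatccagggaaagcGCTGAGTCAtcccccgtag
Osgin1: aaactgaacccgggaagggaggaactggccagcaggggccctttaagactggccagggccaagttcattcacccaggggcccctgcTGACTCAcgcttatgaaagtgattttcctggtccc
Aox1: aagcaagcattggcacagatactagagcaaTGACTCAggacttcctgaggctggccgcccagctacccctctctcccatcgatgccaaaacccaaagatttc
Tedc2: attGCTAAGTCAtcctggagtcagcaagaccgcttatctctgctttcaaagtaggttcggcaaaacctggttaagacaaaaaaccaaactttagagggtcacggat
Gsta3: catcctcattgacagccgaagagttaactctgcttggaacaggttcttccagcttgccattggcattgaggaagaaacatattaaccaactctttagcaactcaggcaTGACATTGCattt

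The next 4 hold the highest Nrf2KO signals among sets with Keap1KO less than 2-fold above Nrf2KO for which such a stretch was found. Angptl2 (15 in Nrf2KO) and Nrd1 (14) had shorter stretches. They belong to Maff, a small Maf protein (chr15:79347428-79347519, plus strand), to the predicted gene Gm6288 (chr6:147476284-147476380, minus), to Nfx1, a zinc finger protein (chr4:40970812-40970905, plus), and to Pelp1, a nuclear receptor coregulator (chr11:70410052-70410172, minus).
Maff: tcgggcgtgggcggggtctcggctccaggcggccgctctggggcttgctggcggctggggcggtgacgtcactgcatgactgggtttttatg
Gm6288: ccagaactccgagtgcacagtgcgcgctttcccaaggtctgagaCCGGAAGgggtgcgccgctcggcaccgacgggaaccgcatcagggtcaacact
Nfx1: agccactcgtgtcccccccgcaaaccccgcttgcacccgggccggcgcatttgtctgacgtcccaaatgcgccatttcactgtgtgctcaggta
Pelp1: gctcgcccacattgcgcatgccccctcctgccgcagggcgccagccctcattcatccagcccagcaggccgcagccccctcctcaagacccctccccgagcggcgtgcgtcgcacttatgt

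At the first 5 places Keap1KO was 9-fold or more above Nrf2KO. Prdx1 had 103 in Keap1KO and 9 in Nrf2KO, with a response element core and an AP-1 site that overlap. Osgin1 had 87 and 6, and the Aox1 window 86 and 8, each with an AP-1 site and no TGACNNNGC in the stretch. Other forms of the response element were not searched. Tedc2 had 45 and 4, and Gsta3 35 and 3, each with 1 response element core. At the high-background places Maff had 26 in Keap1KO and 17 in Nrf2KO, Gm6288 13 and 14, Nfx1 15 and 14, and Pelp1 21 and 13. Of these 4 stretches, that of Gm6288 held an ETS site and the others none of the 3 motifs. Further down both orders the stretches were mixed. Among high ratios, Uchl1 (30 against 2) and Il1f9 (23 against 1) held none of the 3, and Dnajb2 (23 against 2) held a response element core. Among high backgrounds, Rbm34 (20 against 12), Mllt3 (16 against 11) and Flcn (19 against 10) each held a core. So did Pcyt1a (13 against 10), Ptrh2 (16 against 9), Fam111a (15 against 8) and Arrdc4 (12 against 7). Bms1, Urm1 and Cttnbp2nl held an ETS site without a core, Pwp1 an AP-1 site without a core, and the others none of the 3.

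Over all 119 sets with 1 active region (a merged stretch of calls) whose position fell in a promoter window of 300 bases, 47 windows held TGACNNNGC (39.5%), against 12.4% of all 32851 windows in the table. The shares by ratio were 13 of 53 below 2-fold (24.5%), 25 of 44 from 2-fold to below 4-fold (56.8%), 3 of 12 from 4-fold to below 8-fold, and 6 of 10 at 8-fold or more. TGANTCA was found in 5 of 53, 12 of 44, 3 of 12 and 5 of 10, against 7.81% of all windows. CCGGAAG went the other way, with 18 of 53 (34.0%), 9 of 44 (20.5%), 2 of 12 and 0 of 10, against 8.86%. CCAAT was found in 27.7% of the 119 windows and 37.4% of all, and GCGCATGCG, a site of the NRF1 type, in 3.36% and 1.75%. The median GC content was 60.7% in the 119 windows and 52.7% in all, and its part in these shares was not tested. Where a response element core was present, it lay a median of 45 bases from the listed position.

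Keap1KO stood above Nrf2KO at nearly every set. The height, an average peak height per gene whose unit is not stated, had a median of 18 in Keap1KO (quartiles 14 and 23.5, range 2 to 194). In Nrf2KO the median was 4.50 (quartiles 3 and 7, range 0 to 17). Keap1KO was higher at 1454 of the 1469 sets, equal at 5 and lower at 10. The median log2 ratio with 1 added to both heights was 1.90 (quartiles 1.29 and 2.52), a fold of 3.73, and the median difference in height was 13. At least 2-fold higher were 1254 sets (85.4%), at least 4-fold 682 (46.4%) and at least 8-fold 210 (14.3%), while 2 sets were at least 2-fold lower (0.136%). With 5 added in place of 1, 209 sets were at least 4-fold higher, and shares at 4-fold in the text hold for 1 added.

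Every set entered the table through a call, 1457 of them in Keap1KO, and none in Nrf2KO. Heights in Keap1KO were therefore selected upwards, and the share above Nrf2KO is a property of called places, not of the genome. The sequencing depth is unknown, so a difference in scale between libraries and a difference in Nrf2 signal cannot be told apart in the ratio of all sets.

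**Figure D1:**
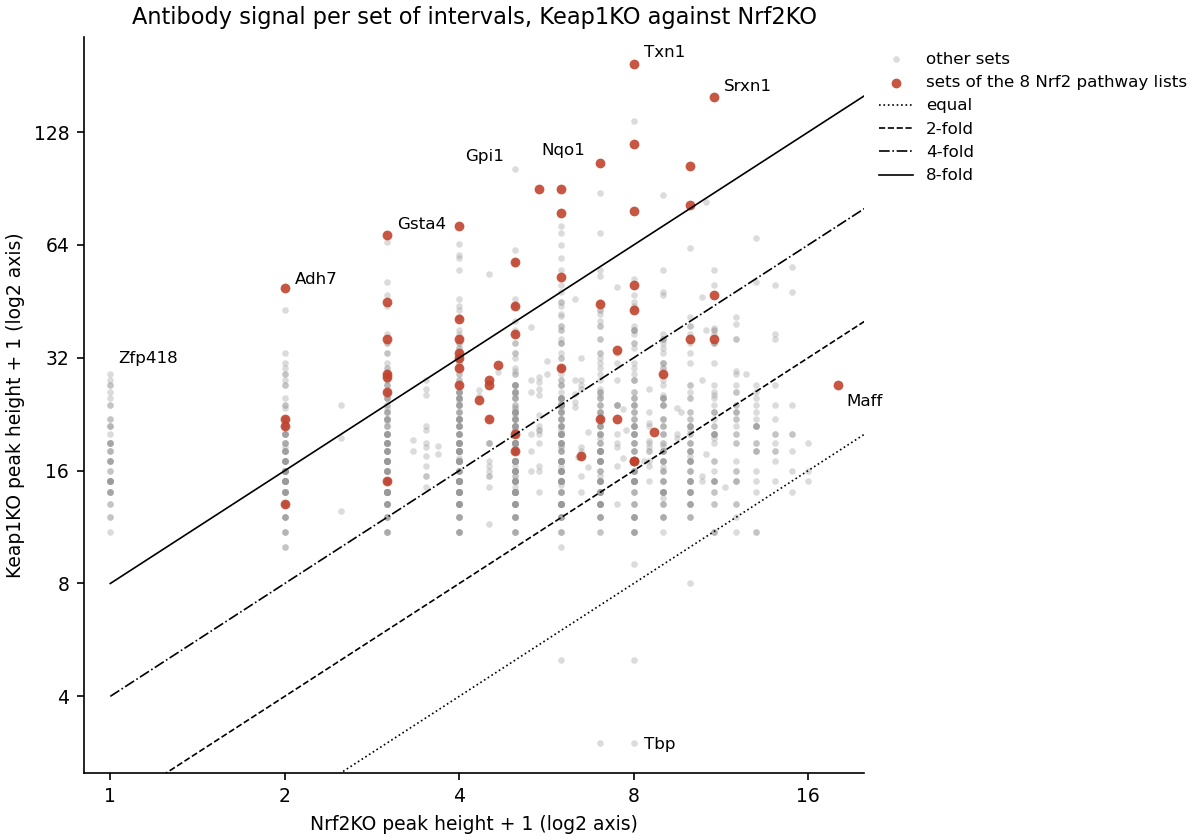
Peak height + 1 in Nrf2KO (x axis) and in Keap1KO (y axis) for each of the 1469 sets, both on log2 axes, with lines at equal height and at 2-fold, 4-fold and 8-fold. Sets of the 8 Nrf2 pathway lists (red) reach the top of the plot at Txn1 (194 against 7), and Maff stands at the right edge with 17 in Nrf2KO.

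The ratio was lower where the Nrf2KO height was higher, at similar Keap1KO heights. At the 304 sets with 0 to 2 in Nrf2KO the median Keap1KO height was 16 and the median log2 ratio 2.94. At the 605 sets above 2 and up to 5 these were 18 and 2.00, at the 425 sets above 5 and up to 9 they were 18 and 1.28, and at the 135 sets above 9 they were 20 and 0.78. The median Keap1KO height thus moved little across sets of low and high background, and the median difference in height went from 15 to 14, 11 and 9. This description shares the Nrf2KO height between both sides, so its direction is in part built in. The level Keap1KO medians could in part follow from the call in Keap1KO.

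The order by ratio therefore put places with no Nrf2KO signal first. Of the 12 largest ratios among Keap1KO calls of at least the median height, 9 were listed at 0 in Nrf2KO. They were Zfp418 (28 in Keap1KO), a zinc finger gene, the tetraspanin gene Tspan3 (27), Tbcel (26), a tubulin folding gene, Tenm2 (26), the tetraspanin gene Tspan17 (25), Cep192 (24), a centrosome gene, Agpat9 (23), a lipid synthesis gene, Sema4f (23), a semaphorin gene, and Ago3 (21), an Argonaute gene. Ago3 tied with Tfe3, which was left out by the order of symbols. No fold is given for these 9. The Tspan3 set, shared with Pstpip1, lay 32622 bp from the Tspan3 start, and the Tenm2 set 791923 bp from its start. Tspan17 shared its set with Eif4e1b, and Ago3 with Ago1. In all, 48 sets were listed at 0 in Nrf2KO, and 47 of these lay farther than 1 kb from the start of any gene listed for the set. The other 3 of the 12 were Adh7, an alcohol dehydrogenase (48 against 1, 24.5-fold), Txn1, thioredoxin (194 against 7, 24.4-fold), and Gsta4, a glutathione transferase (67 against 2, 22.7-fold).

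With 5 added to each height in place of 1, the order changed. Zfp418 went from rank 1 to rank 36 and Ago3 from rank 12 to rank 75, while Txn1 went from rank 8 to rank 1 (16.6-fold). Gpi1, a glycolytic enzyme gene, went from 19 to 2 (11.8-fold), and Srxn1, sulfiredoxin, from 63 to 4 (10.9-fold). The sets listed at 0 thus lost their place to sets with taller Keap1KO signals.

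Thioredoxin and sulfiredoxin genes led the order by difference in height, which needs no added number. After them came Sh2d6, which no gene list named, and then ferritin and quinone reductase genes. The 12 largest differences were led by Txn1 on chromosome 4 (position 57956752, 341 bp upstream of the start, GeneID 22166), with 187 units. Srxn1 followed on chromosome 2 (position 152105536, 12 bp into the gene), with 158 in Keap1KO and 10 in Nrf2KO. Sh2d6, an adaptor protein gene, had 136 against 7 downstream of the gene, 7866 bp from its start on chromosome 6, the tallest of the 12 that no gene list named. Ftl1, the ferritin light chain gene, had 118 against 7, at a set it shared with Bax and Gys1. Nqo1, a quinone reductase gene, had 105 against 6, and Gpi1 101 against 4. Prdx1 had 103 against 9.

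Gstp1, a glutathione transferase gene, had 89 against 4.50 as a mean of 2 regions. Its neighbour Gstp2 is nearly identical in sequence and shares the set, so which of them holds the signal is uncertain. Tkt, transketolase, had 89 against 5 and Osgin1 87 against 6. The set listed under Sgol2 (86 against 8) lay downstream of that gene, 44420 bp from its start, and its interval is also 1 of the 2 regions of Aox1. The set of Gm9783, Frmd8 and Neat1 had means of 82.3 and 9.67 over 3 regions. All 12 of these were at least 4-fold above Nrf2KO, and 11 of them at least 8-fold, against 14.3% of all sets. The choice of sets by their difference fixes that direction. Wild-type heights at these 12 ran from 10.5 to 32, above Nrf2KO at all 12, against 53.8% of all sets. The Nrf2KO height is part of the choice of these sets. Wild-type had 25 at Txn1, 13 at Srxn1, 19 at Sh2d6, 20 at Ftl1, 12 at Nqo1, 32 at Gpi1 and 20 at Prdx1.

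Sets of the 8 Nrf2 pathway lists made up 12 of the 20 largest differences but 3 of the 20 largest ratios, against 3.74% of all sets. In the top 50 they made up 17 by difference and 8 by ratio, and 15 sets were in both orders' top 50. The 20 largest ratios had a median Nrf2KO height of 0 and a median Keap1KO height of 25.5. The 20 largest differences had medians of 6 and 86.5. The pathway lists were chosen with earlier results of these data known, so their shares could in part follow from that choice.

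Signal in Nrf2KO was highest near gene starts, where the ratio was lowest. Within 1 kb of the nearest listed start lay 458 sets (31.2%), with median heights of 7 in Nrf2KO and 17.5 in Keap1KO and a median log2 ratio of 1.30. The 1011 sets farther away had 4 and 18, and 2.14. At least 2-fold higher in Keap1KO were 307 of the near sets and 947 of the far ones, and at least 8-fold 28 and 182, against 85.4% and 14.3% of all sets. Distances run to starts of the genes listed for the set only, so some far sets lie close to another start. The Sgol2 set lay 44420 bp from its listed start but 209 bp upstream of Aox1. Tbcel lay 10786 bp from its listed start but 12 bp from a RefSeq start of the gene.

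The median Nrf2KO height was lower at larger distances, while the median Keap1KO height stayed in a narrow range. Among sets with 1 active region, the median Nrf2KO height was 8 up to 200 bp from a start, 7 from there to 500 bp, 6 to 1000 bp, 4 to 2000 bp and 3 beyond 10 kb. The median Keap1KO height was between 17 and 20 in each of the 8 distance classes. Of all sets, 1457 entered through a Keap1KO call, so this narrow range could in part follow from the call. The median wild-type height was also lower at larger distances, 7 up to 200 bp and 4 beyond 10 kb. The median log2 ratio was 1.07 in the closest class, 1.27 and 1.58 in the next, and between 1.96 and 2.25 beyond 1 kb. Near starts, sets upstream and in the gene were much alike (1.28 and 1.17). Far from starts, upstream, in-gene and downstream sets had 2.00, 2.19 and 2.09. The table does not divide genes into exons and introns.

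**Figure D2:**
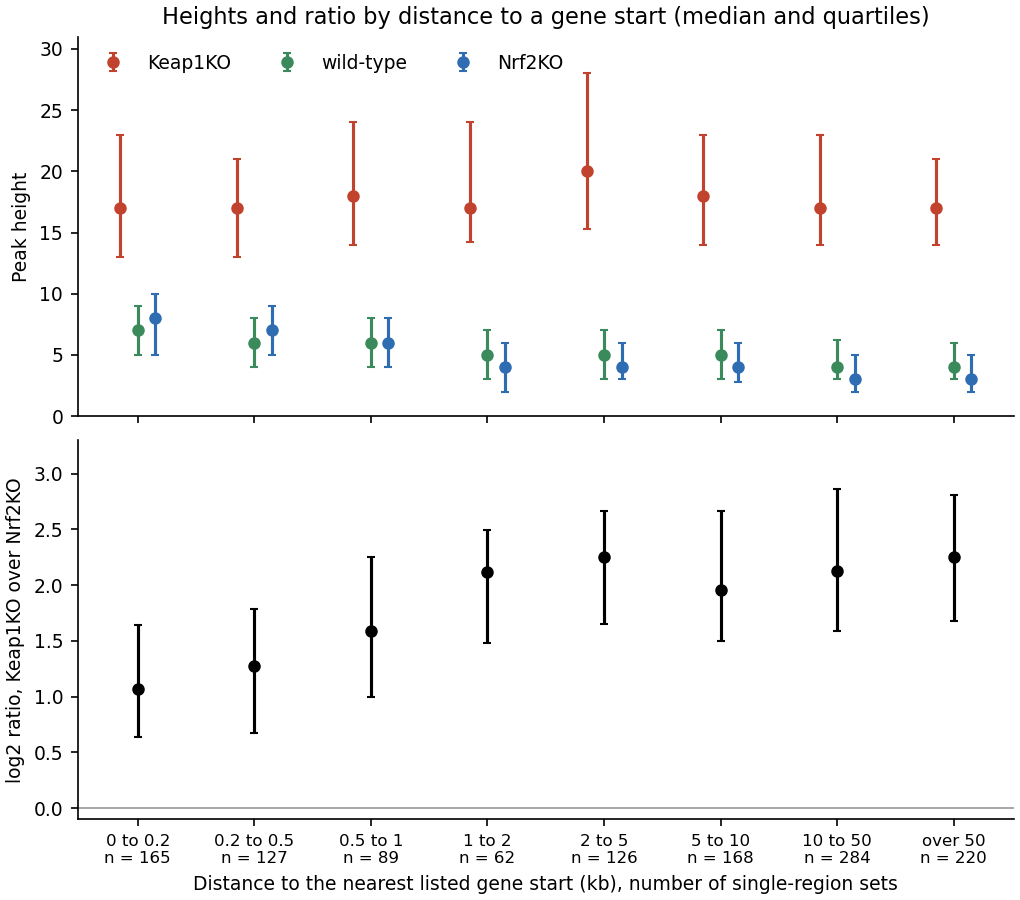
Top, median peak height with quartiles (bars) in Keap1KO, wild-type and Nrf2KO for single-region sets in 8 classes of distance to the nearest listed gene start in kb; bottom, the log2 ratio of Keap1KO to Nrf2KO in the same classes. The Nrf2KO median is 8 in the closest class and 3 in the farthest, while the Keap1KO median stays between 17 and 20.

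The places of highest background were mostly close to gene starts, and 1 of them belonged to a partner of Nrf2. Of the 10 highest Nrf2KO heights 8 lay within 1 kb of a start, and 9 were higher in Nrf2KO than in wild-type. Gm6288 and Nfx1 tied with the last of these at 14 and were left out for their lower Keap1KO heights. With them, 10 of 12 lay within 1 kb and 11 were higher in Nrf2KO than in wild-type. The choice of sets by their Nrf2KO height fixes that direction against wild-type in part. Over all 1469 sets, 31.2% lay within 1 kb, and wild-type was above Nrf2KO at 790 (53.8%). Maff had 17 (Nrf2KO), 11 (wild-type) and 26 (Keap1KO). Osbp, an oxysterol binding protein gene, had 15, 12 and 18 in the same order, and Angptl2, of the angiopoietin-like family, 15, 9 and 15. The set of Whsc1l1, a histone methyltransferase gene, and Letm2 had 15, 9 and 14. Slc25a39, a mitochondrial carrier gene, had 14, 7 and 23, and Nr3c1, the glucocorticoid receptor gene, 14, 7 and 19. Nrd1, a protease gene, had 14, 7 and 19, and the set of Gt(ROSA)26Sor, Setd5 and Thumpd3 14, 2 and 17.

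Some sets of high background also had a tall Keap1KO signal. Psmd1, a proteasome subunit gene, had 14 in Nrf2KO and 47 in Keap1KO (3.20-fold), and the set of Srp19 and Apc 14 and 55 (3.73-fold). Srxn1 had 10 and 158, the only one of the 135 sets above 9 in Nrf2KO that was at least 8-fold higher in Keap1KO. Of those 135, 47 were at least 2-fold higher, against 85.4% of all sets.

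At 10 sets the Keap1KO height was below that of Nrf2KO. The set of Tbp and Psmb1 had 2 in Keap1KO and 7 in Nrf2KO (0.375-fold), and that of Atl1 and Map4k5 2 and 6 (0.429-fold). Pwp1 had 4 and 7, H3f3a, a histone gene, 7 and 9, Col6a6, a collagen gene, 4 and 5, and Ufl1 10 and 11. These 6 were called in wild-type and not in Keap1KO, with wild-type heights from 10 to 16. The other 4 were called in Keap1KO at heights close to the background, namely Gm7710 (10 and 12), Nrip1, a nuclear receptor corepressor gene (10 and 12), Gm6288 (13 and 14) and the set of Whsc1l1 (14 and 15).

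The 12 sets called only in wild-type entered the table without a Keap1KO call. Their median height was 9 (Keap1KO), 7 (Nrf2KO) and 13 (wild-type), and the log2 ratio had a median of −0.06. The highest were Tnrc6c (10 against 4, 2.20-fold) and Ddx3x, an RNA helicase gene (11 against 5, 2.00-fold). The others above or level with Nrf2KO were Capn2, a calpain gene (14 against 10), Arl15 (10 against 7), Gabpa, an ETS family factor gene (8 against 7), and Ppm1a, a phosphatase gene (10 and 10). The absence of a call selects the Keap1KO height downwards in turn, so neither this group nor the 1457 called sets gives an unselected ratio. At the 44 sets called in both libraries the median heights were 38.8 (Keap1KO), 6.50 (Nrf2KO) and 13 (wild-type), and the ratio had a log2 median of 2.39.

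The pathway genes stood higher over background than the table as a whole. Of the 27025 genes with a RefSeq promoter window, 1434 had a row. Of 128 genes in the 8 Nrf2 pathway lists 57 had a row, in 55 sets. Their median height was 32.5 in Keap1KO and 4 in Nrf2KO, against 18 and 4.50 over all sets. At least 2-fold above Nrf2KO were 54 of the 55 (85.4% of all sets), at least 4-fold 44 (46.4% of all) and at least 8-fold 27 (14.3% of all). Their median log2 ratio was 2.91 against 1.90. The lists were chosen with earlier results of these data known, and all 55 sets were called in Keap1KO. This contrast is therefore a description and could in part follow from that choice. Their median background was thus close to that of all sets, and their median Keap1KO height was above it. The 1 pathway set under 2-fold was Maff.

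Regulators of the pathway had the highest background of the 8 lists. They were 5 genes in 5 sets, with a median of 7.67 in Nrf2KO and 35 in Keap1KO. Nfe2l2 had 78 against 7 (9.88-fold), 561 bp into the gene. Mafg, another small Maf gene, had 43.7 against 6 (6.38-fold) as a mean over 3 regions. Bach1, a repressor that competes for the same elements, had 35 against 10 (3.27-fold), and Keap1 19.3 against 7.67 (2.34-fold). Signal near Nfe2l2 and Keap1 does not check either deletion.

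Glutathione genes were at least 2-fold above background at all 9 sets, against 85.4% of all sets, and at least 4-fold at 6 of them, against 46.4%. Gclc, the catalytic subunit of glutamate-cysteine ligase, had 56.5 against 4 (11.5-fold), and Gclm, its modifier subunit, 28 against 2 (9.67-fold). Slc7a11, the cystine carrier, had 29.7 against 3.67 and Gsr, glutathione reductase, 27 against 3.50. Gpx2, a glutathione peroxidase, had 26 against 3. The lowest of the list was Gss, glutathione synthetase, with 16.5 against 5.50 (2.69-fold).

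The thioredoxin list had the largest median ratio of the 8, 3.54 on the log2 scale over 8 sets. Beside Txn1, Srxn1 and Prdx1 stood Txnrd1, thioredoxin reductase (77 against 5), Cat, catalase (71 against 3, 18-fold), and Prdx6, a peroxiredoxin (31 against 3). Sod1, superoxide dismutase, was lowest with 16 against 7 (2.13-fold). Prdx2 shared a set with Junb (17 against 4), and the set lay 10208 bp from its start.

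Glutathione transferases were all at least 4-fold above background, at 10 sets for 12 genes, against 46.4% of all sets. Gstm3 had 35 against 2 (12-fold), Gstm1 43 against 4 (8.80-fold) and Mgst2 20 against 1 (10.5-fold). The lowest was Gsto2 with 14 against 2 (5-fold). Members of the Gstm cluster are close copies, so the division of reads among them is uncertain.

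Of quinone, carbonyl and aldehyde genes 9 had a set, 8 of them at least 4-fold above background (46.4% of all sets). Cbr3, a carbonyl reductase, had 81 against 9 (8.20-fold), Aox1 51.5 against 5 over its 2 regions, and Aldh3a1, an aldehyde dehydrogenase, 49 against 7 (6.25-fold). Akr1b10 was lowest with 16 against 7 (2.13-fold).

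NADPH supply had 5 sets, all at least 4-fold above background (46.4% of all sets). Taldo1, transaldolase, had 44 against 2 (15-fold), G6pdx, glucose-6-phosphate dehydrogenase, 27.5 against 2 (9.50-fold), Pgd 32.5 against 6.50 (4.47-fold), and Me1, malic enzyme, 19 against 4 (4.00-fold).

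Heme and iron had 5 sets. Hmox1, heme oxygenase, had 39.5 against 3 (10.1-fold) and Slc48a1, a heme transporter, 46 against 10 (4.27-fold). Fth1, the ferritin heavy chain, was lowest with 21 against 6.50 (2.93-fold).

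Conjugation and export had 4 sets. Abcc3 had 21 against 1 (11.0-fold), Abcc5 25 against 2 (8.67-fold) and Abcc1 32 against 3 (8.25-fold), all drug exporters. Ugdh, which makes glucuronic acid donors, had 26 against 3.50 (6.00-fold).

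Outside these lists, glycolysis stood above the table's median and the proteasome below it. Glycolysis and glucose uptake had 10 sets, all at least 2-fold above background (85.4% of all sets), with a median log2 ratio of 2.45. Beside Gpi1, the regulator Pfkfb4 had 58 against 5 (9.83-fold), the glucose transporter Slc2a1 54 against 5 (9.17-fold) and enolase (Eno1) 39 against 6 (5.71-fold), while Pfkfb2 was lowest (16 against 7.33, 2.04-fold). The proteasome had 19 sets with a median of 1.68, and 14 of them were at least 2-fold above background (85.4% of all sets). Of these 19, 17 lay within 1 kb of a start, where the median over all sets was 1.30. Psma5, a core subunit, had 27 against 2 (9.33-fold) and Vcp, an ATPase, 44 against 5 (7.50-fold). Psmc1, a regulatory subunit, had 36 against 13 (2.64-fold).

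Immediate early genes had 6 sets with a median log2 ratio of 1.98, from Fosl1 (27 against 2) to Ier5 (12 against 6). Of 14 basal squamous genes 4 had a set. They were Notch1 (29 against 7), Trp63 (18 against 2), Pax9 (16 against 6) and the keratin gene Krt14, listed at 0 in Nrf2KO and 18 in Keap1KO. These sets lay 3922 bp (Notch1), 216075 bp (Trp63), 9975 bp (Pax9) and 8758 bp (Krt14) from the listed start. Krt14 shared its set with Krt9. Their log2 ratios had a median of 2.28, which includes Krt14 with 1 added to its 0. Of differentiated squamous genes 1 of 24 had a set, the protease gene Klk5 (19 against 1). Muscle genes had 2 of 17, Ttn (21 against 3) and Lmod1 (18 against 5). Fibroblast, endothelial and immune genes had 3 of 17, none at 2-fold (85.4% of all sets): Vim (15 against 8), Dpt (10 against 7) and Cd68 (12 against 9). Cd68 shared its set with Eif4a1, Mir1934, Mpdu1 and Sox15. A called interval at a gene is not its expression, so these counts do not measure cell types. Housekeeping genes had 2 of 16, Hprt (12 against 4) and Tbp. Among the 27025 genes with a RefSeq promoter window, 1434 had a row.

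**Figure D3:**
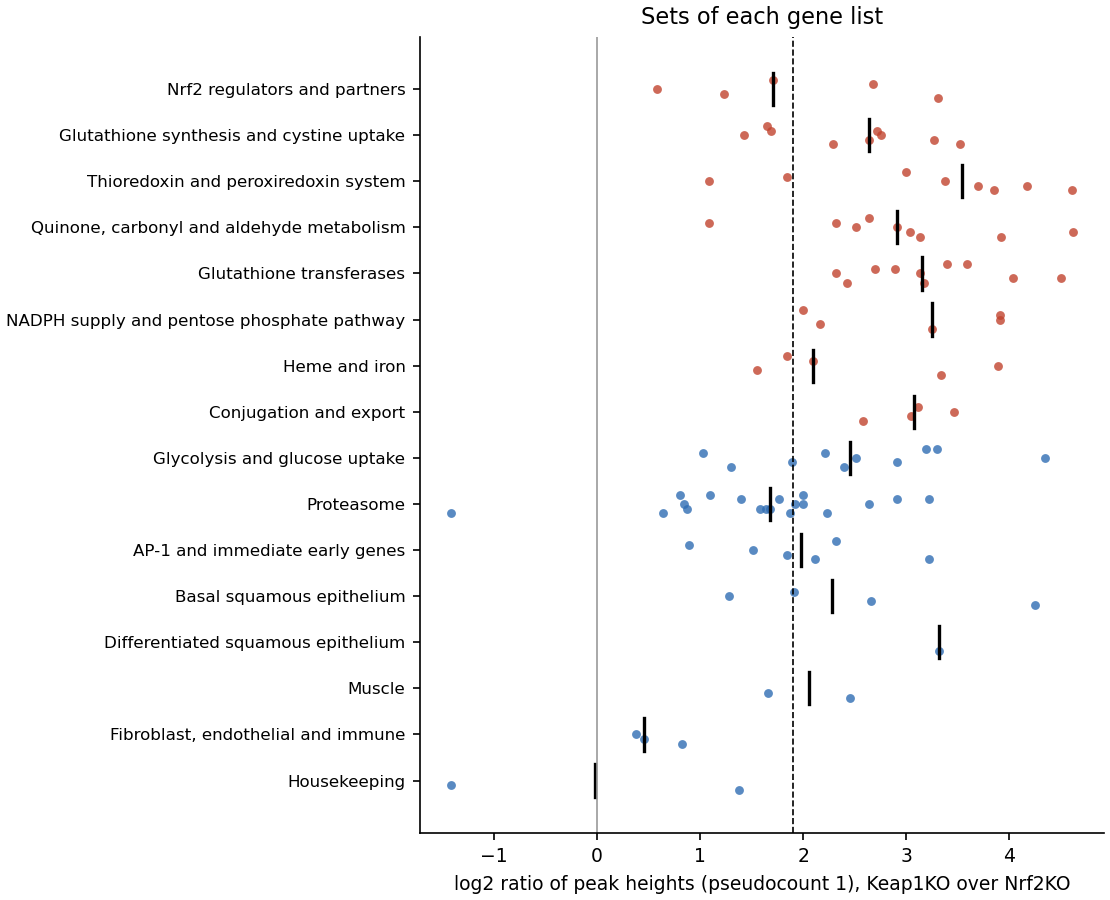
Log2 ratio of peak heights (Keap1KO over Nrf2KO, 1 added to each) for every set of the 16 gene lists, with Nrf2 pathway lists in red, others in blue, list medians as black bars and the median of all 1469 sets as a dashed line at 1.90. The thioredoxin list has the rightmost median of the pathway lists (3.54), and the set shared by Psmb1 and Tbp is the leftmost point (−1.42).

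The wild-type library, which has no part in the ratio, was higher where Keap1KO was higher, within each class of background. Sets called in Keap1KO were put into 4 classes of Nrf2KO height and, within each, into 3 groups from low to high Keap1KO height. In the lowest background class the median wild-type height was 3, 4 and 5 in the 3 groups. There the median Nrf2KO height was not level either (1, 1 and 2), while it was equal across the groups of each other class. In the next classes it was 4, 5 and 6, then 5, 6 and 7.50, and in the highest 7, 7.50 and 9. Wild-type was above Nrf2KO at 85 of 109, 90 of 103 and 87 of 92 sets in the lowest background class. In the class above 9 it was above at 2 of 50, 6 of 39 and 13 of 43. Over all sets it was above at 790 of 1469 (53.8%). The second comparison shares the Nrf2KO height with the classes, so shares are to be read along the Keap1KO groups and not across classes. The quartiles of neighbouring groups overlapped in every class.

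**Figure D4:**
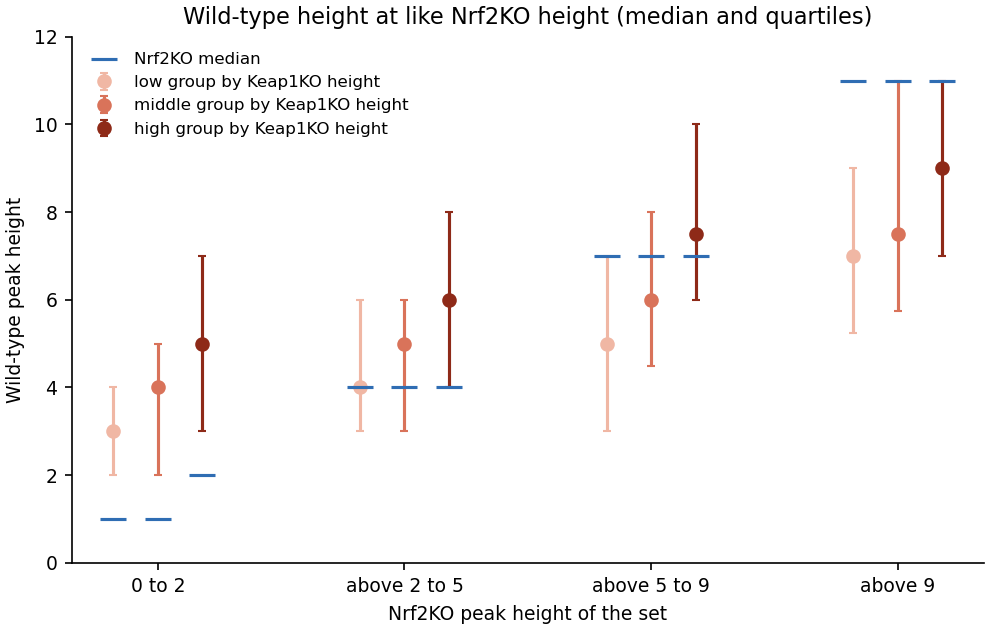
Median wild-type peak height with quartiles (bars) for sets called in Keap1KO, in 4 classes of Nrf2KO height (x axis) and 3 groups of Keap1KO height within each (light to dark), with blue dashes for the median Nrf2KO height. In each class the wild-type median is higher in the high group than in the low group, for example 7.50 against 5 in the class above 5 to 9.

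Median ratios differed little between autosomes and between sets with 1, 2 or 3 regions. Chromosome medians on the log2 scale ran from 1.73 (chromosome 9, 76 sets) to 2.08 (chromosome 6, 72 sets) among the autosomes, and the 16 sets of chromosome X had 2.33. Sets with 1 active region had a median of 1.89 (1241 sets), those with 2 had 1.90 (176) and those with 3 had 2.07 (46). The 6 sets with 4 or more regions had 1.42, with 0 sets at 4-fold or more. At least 8-fold higher were 195 of the 1241 single-region sets and 15 of the 228 others, and none of the 228 was listed at 0 in Nrf2KO.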

How the data were processed

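Nrf2 ChIP-seq of 3 mouse genotypes was deposited as 1 table of genes near called intervals. Per the submitters' processing notes, BWA and MACS2 2.1.0 were used with the genome build mm10; their parameters, the depth and any scaling were not given in the sources used here. In the deposited table the signal is an average peak height per gene, per the file headers, with no unit stated. In genes with 1 active region all 5043 heights were whole numbers. Flags for called intervals, per the file headers, are 0 or 1.

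Rows with the same interval text were reduced to 1 set, after a check that their heights were equal. Ratios are log2((Keap1KO + 1)/(Nrf2KO + 1)), and a fold is on the same scale. Steps were tested on simulated data. Positions were computed from gene starts, strands and listed distances, and 1649 of 1727 were multiples of 16 bp. Python 3.11.15, numpy 2.4.6 and pandas 2.3.3 were used. Of the gene rows, 1878 matched RefSeq identifiers and 1434 had a promoter window of their own.

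Named sets were the 12 largest ratios among Keap1KO calls of at least the median height (18), the 12 largest differences, the 10 highest Nrf2KO heights, the 10 lowest ratios, all sets not called in Keap1KO (ties broken by Keap1KO height, then symbol), and members of 16 gene lists, up to 6 by Keap1KO height and the lowest ratio. From some lists fewer were named, and sets with printed sequences were named as well. The members and lists were chosen with earlier results of these data known. Because 1 library was made per genotype, no test was run.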

Additional observations from a re-analysis of the deposited data

How the results depend on the processing

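No paired analysis was possible because there is 1 library per genotype. Leaving out sets within 1 kb of a start and leaving out sets called in wild-type were alternatives chosen after seeing the data. Another signal column could not be used, since the table gives its highest value for 1 library only. The unknown depth limits all ratios between libraries. For values that moved, the cause was not tested, although a larger added number shrinks ratios and a filter leaves fewer sets by construction. The median log2 ratio (1.90) was 2.00 with 0.5 added to each height and 1.35 with 5 added. It was 1.96 in the 770 sets with a mean height of at least the median, 1.83 over all 1940 gene rows, 2.20 in the 758 sets called in Keap1KO at or above the median height, and 2.14 without sets within 1 kb of a start. Sets at least 2-fold higher (1254, 85.4%) numbered 657 in the 770 (85.3%) and 713 in the 758 (94.1%). With 5 added they numbered 1073 (73%), within 1.5 times the count. Sets at least 4-fold higher (682, 46.4%) numbered 209 with 5 added (14.2%) and 383 in the 770 (49.7%). Sets at least 2-fold lower (2) numbered 4 over all gene rows and 0 with 5 added, in the 770, in the 758, without near sets and without sets called in wild-type. The near median (1.30) was 1.58 with a limit of 5 kb and 0.95 with 5 added, and the far median (2.14) was 2.27 with 0.5 added and 1.46 with 5. The pathway median (2.91) was 2.12 with 5 added. The median of the 2 housekeeping sets turned from −0.02 to 0.070 with 5 added. Counting the 1073, 27 values of the comparisons stayed within their interval or within 1.5 times the count. Of the other recomputed medians of single lists, 54 stayed within the interval of the reported median. Another 7 moved beyond it in the same direction, all 7 with another added number. The interval was set as a 95% binomial one over sets of 1 pair of libraries, so it holds no error between animals. In lists of 5 or fewer sets no such interval reaches 95%, so a value within it says little there.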
